A study of Homo sapiens with 3 samples.

Results

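YB5 cells treated with decitabine and carboplatin together were compared with control cells on a single dual-colour Agilent whole human genome array, which is 1 of the 3 arrays of the study and was chosen by its title. YB5 was grown from 1 clone of SW48, a line from a colon carcinoma. It carries a GFP reporter driven by a CMV promoter that DNA methylation keeps silent, so every value below belongs to that clone. The treated cells received decitabine at 25 nM and carboplatin at 20 µM on days 1 to 4, in 4 doses, and were harvested on day 6. The text of the study also gives another carboplatin dose, and the dose of the sample labels is used here. Control cells received DMSO, the diluent, and are called untreated in the sample titles. The other arrays, labelled decitabine (25 nM) and carboplatin (20 µM), followed the same schedule, and all 3 lie on 1 slide. Control RNA carried Cy5 (red) and treated RNA Cy3 (green) on each of them, and the dyes were exchanged on none. A preference of a probe for a dye is therefore part of every change given here.

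With decitabine, a cytidine analogue, methylation fades as cells divide, because the DNA methyltransferases that copy it stay bound to the drug in DNA. Carboplatin forms platinum adducts and crosslinks on DNA, which stall replication and activate p53. Active p53 raises a set of arrest and apoptosis genes and, through CDKN1A and the DREAM repressor complex, lowers the genes that cells use to replicate DNA and divide.

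With 1 array per treatment there was no replicate and no test could be run. Changes are log2 ratios, treated over control, after background correction and loess normalisation, and a gene was called up or down (it rose or fell) at a ratio of at least 1.5, a log2 change of 0.585. A level is the log2 intensity of a single channel after scaling between the arrays, and levels are compared only within a probe. The 43376 gene spots of this array had a median control signal of 282 units and a median treated signal of 167 units, while 153 negative spots had medians of 74.1 and 57.5. Spots well above background made up 68.2 % in the control channel and 68.5 % in the treated channel. Probes spotted 10 times, 264 in number, had a pooled SD of 0.0769 in log2 change, which measures error within the array and not between cultures. Of 18611 genes measured, the 25 % with the lowest control level over the 3 arrays (4653 genes) are called silent here and the other 13958 genes expressed. The control channels of this array and of the array labelled carboplatin lay at least 1.5-fold apart for 90 expressed genes, or 0.645 %.

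Cautions about the other arrays bear on the values given side by side. The first 9 columns of spots on the array labelled decitabine had a low control signal, and its repeated probes had a pooled SD of 0.230, compared with 0.0751 on the array labelled carboplatin. CBX5, spotted there, read 10.13 in its control channel and 11.52 and 11.48 in those of the other arrays. Such genes are said below to lie in the defective columns. Some genes outside them also had a low control level on that array. CKS1B read 12.53 there, compared with 13.97 and 13.88 on the others, and MRPL40 10.145, compared with 10.952 and 10.937. Counts and shares given outside the defective columns may therefore still hold such genes. Both other arrays are named by their labels, which are in doubt. The supplement of the study names genes as changed by carboplatin, and most of them changed on the array labelled decitabine. Of these 199 genes, 165 were past the ratio of 1.5 in the listed direction there. The array labelled carboplatin had 23 of them past it and the array of both drugs 93. Among the 122 outside the defective columns the counts were 91, 18 and 82. Which array holds which drug cannot be told from this, so every value of a single drug below belongs to the array of that label and not with certainty to the drug. All 3 arrays may also share control RNA, and no comparison between them was tested.

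With both drugs 1296 expressed genes rose, 9.28 % of those measured, and 1103 fell, 7.90 %. Rises made up 54.0 % of the 2399 called genes. This balance depends on the scaling. With the array centred on its median in place of loess, 544 genes rose and 3985 fell, since the median of the expressed genes then moved from −0.01 to −0.31. Rises reached further than falls. At a ratio of 2 or more 428 genes rose and 256 fell, at 4 or more 70 rose and 15 fell, and at 8 or more 24 rose and 0 fell. Among silent genes 94 of 4653 rose (2.02 %) and 0 fell (0 %). For comparison, the array labelled decitabine had 13.7 % of expressed genes up and 6.23 % down, shares that include the defective columns. Outside those columns, over 12546 genes, they were 6.25 % and 6.82 %, compared with 9.07 % and 7.88 % with both drugs. The array labelled carboplatin had 3.30 % up and 1.99 % down.

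**Figure D1:**
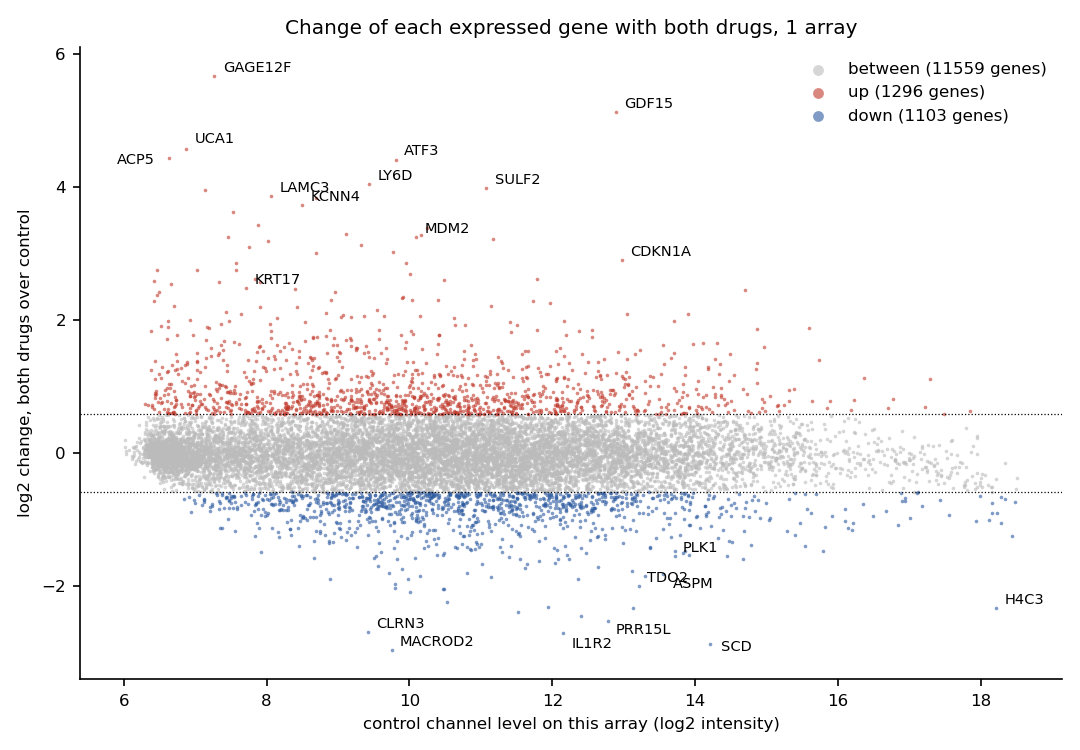
Log2 change with both drugs (y axis) against the control channel level in log2 intensity (x axis) for each of 13958 expressed genes on 1 array; dotted lines mark the ratio of 1.5 and colours the calls. The 1296 red genes reach up to 5.68 and the 1103 blue genes down to −2.96.

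Different probes of a gene did not always give the same call. Of the genes that rose, 476 had several probes, and all probes changed in the same direction for 446 of them (93.7 %), but all passed the threshold for only 218. Of the genes that fell, 577 had several probes, with the same direction in 475 (82.3 %) and all past the threshold in 114. Another probe passed the threshold in the opposite direction for 0 of the genes that rose and 4 of those that fell. Genes with a moderate control level were called up most often, at 12.01 % among the 3489 genes with control levels of 8.31 to 10.22, compared with 7.36 % among the 3490 genes with the highest levels.

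The largest rise belonged to a GAGE gene, a cancer-testis antigen that normal cells outside the germ line keep silent. The probe is named GAGE7 in the files and matches GAGE12F in RefSeq, at chrX:49218341-49218400 in GRCh37, and it cannot tell the near-identical members of this family apart. Its control level was 7.27 and its treated level 12.94, a log2 change of 5.68 or 51.1-fold. The array labelled carboplatin read 7.42 and 13.56 for the same probe, and the array labelled decitabine 6.24 and 6.36, with neither channel well above background. The rise was thus present on 2 of the 3 arrays.

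GDF15, a secreted stress cytokine induced by p53 and by the integrated stress response, rose 35.1-fold (chr19:18499890-18499949). It went from 12.89 in control to 18.02 in treated cells on this array, from 12.88 to 17.84 on the array labelled decitabine and from 12.86 to 14.51 on the array labelled carboplatin. The 3 control levels nearly coincided. ATF3, a stress-induced transcription factor, rose by 4.42, from 9.81 to 14.23. Its levels were 9.90 and 15.03 on the array labelled decitabine and 9.83 and 9.81 on the array labelled carboplatin, where it did not move.

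UCA1, a long noncoding RNA first described in bladder carcinoma, rose by 4.57, from 6.87 to 11.44. Both other arrays gave smaller changes from like control levels, from 6.74 to 8.80 (labelled decitabine) and from 6.76 to 8.58 (labelled carboplatin). ACP5, the tartrate-resistant acid phosphatase of osteoclasts and macrophages, rose by 4.45, from 6.64 to 11.08. It changed by 3.23 (labelled carboplatin) and 0.04 (labelled decitabine). SULF2, an extracellular sulphatase that trims heparan sulphate, rose by 3.99, compared with 3.63 (labelled decitabine) and 1.08 (labelled carboplatin). PGF, a growth factor of the VEGF family, rose by 3.96, and its changes of 1.57 and 1.97 on the arrays labelled decitabine and carboplatin were both smaller.

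LY6D, a surface protein of squamous epithelium, rose by 4.05, from 9.44 to 13.49. Its control level was 7.12 and 7.10 on the arrays labelled decitabine and carboplatin, so that the control channels themselves differed by more than the threshold. LGALS7 and LGALS7B, which encode the same galectin of stratified epithelium and cannot be separated by their probes, rose by 3.39 and 3.30. Their control channels also lay above those of the array labelled carboplatin, at 10.24 and 9.12 compared with 8.996 and 8.21. In all, 14 of the 1296 genes that rose had control channels at least 1.5-fold apart from the array labelled carboplatin, above or below. Of the genes that fell 0 did.

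LAMC3, a laminin chain, rose by 3.87, TNNI2, the fast muscle troponin inhibitor, by 3.84, and KCNN4, a calcium-activated potassium channel, by 3.73. DQX1, a putative helicase, rose by 3.44 and the uncharacterised LOC100289026 by 3.63. The control channel of KCNN4 lay 0.74 above that of the array labelled carboplatin, and that of LAMC3 was 8.07 here and 7.28 on the array labelled carboplatin. Among silent genes PRAME, a cancer-testis antigen, had a control channel that was not well above background, so that its rise is given as at least 5.93-fold. PDIA2, a protein disulphide isomerase, rose at least 5.98-fold and COL5A1, a fibrillar collagen chain, at least 5.16-fold by the same bound, the lowest signal well above background. The bound of COL5A1 is that of its brightest probe, and its other probe had a log2 change of only 1.05. ABCA12, the lipid transporter of the skin barrier, rose by 2.70 and PTAFR, the receptor for platelet-activating factor, by 2.61.

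The largest fall was that of MACROD2, a hydrolase that removes mono-ADP-ribose from proteins, with a log2 change of −2.96 (7.78-fold, on chromosome 20, with its probe reaching from 15948231 to 15967386 across a splice). Its control level was 9.75 and its treated level 6.79, while the array labelled decitabine read 9.78 and 7.30 and the array labelled carboplatin 9.66 and 9.07. Its 4 probes ranged from −2.96 to −0.22. SCD, the desaturase that makes oleic acid from stearic acid, fell by 2.87 (7.31-fold), and its 4 probes ranged from −2.87 to −1.43. Its levels were 14.21 and 11.34 here, 14.18 and 11.52 on the array labelled decitabine, and 14.08 and 12.62 on the array labelled carboplatin, so the treated channel was lower on each array.

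IL1R2, the decoy receptor for interleukin 1, fell by 2.70, from 12.15 to 9.45, with 12.22 and 9.55 on the array labelled decitabine and 12.06 and 11.96 on the array labelled carboplatin. CLRN3, a clarin family membrane protein, fell by 2.68 and PRR15L by 2.52. FGFBP1, which releases fibroblast growth factors from the matrix, fell by 2.38. LGR6, an R-spondin receptor that marks epithelial stem cells, fell by 2.31, and both of its probes fell. TMPRSS4, a membrane serine protease, fell by 2.32. It lies in the defective columns of the array labelled decitabine and its change on the array labelled carboplatin was −0.74.

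Further down the list, MBOAT1, an acyltransferase of lysophospholipids, fell by 2.23, COL6A5, a collagen VI chain, by 2.08, and PRR15 by 2.04. MARCO, a scavenger receptor, fell by 2.04, MYCN, the MYC-family transcription factor, by 2.02, and TDO2, which starts the breakdown of tryptophan, by 2.00. For each of the 15 largest falls the treated channel was lower than the control channel on all 3 arrays.

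**Figure D2:**
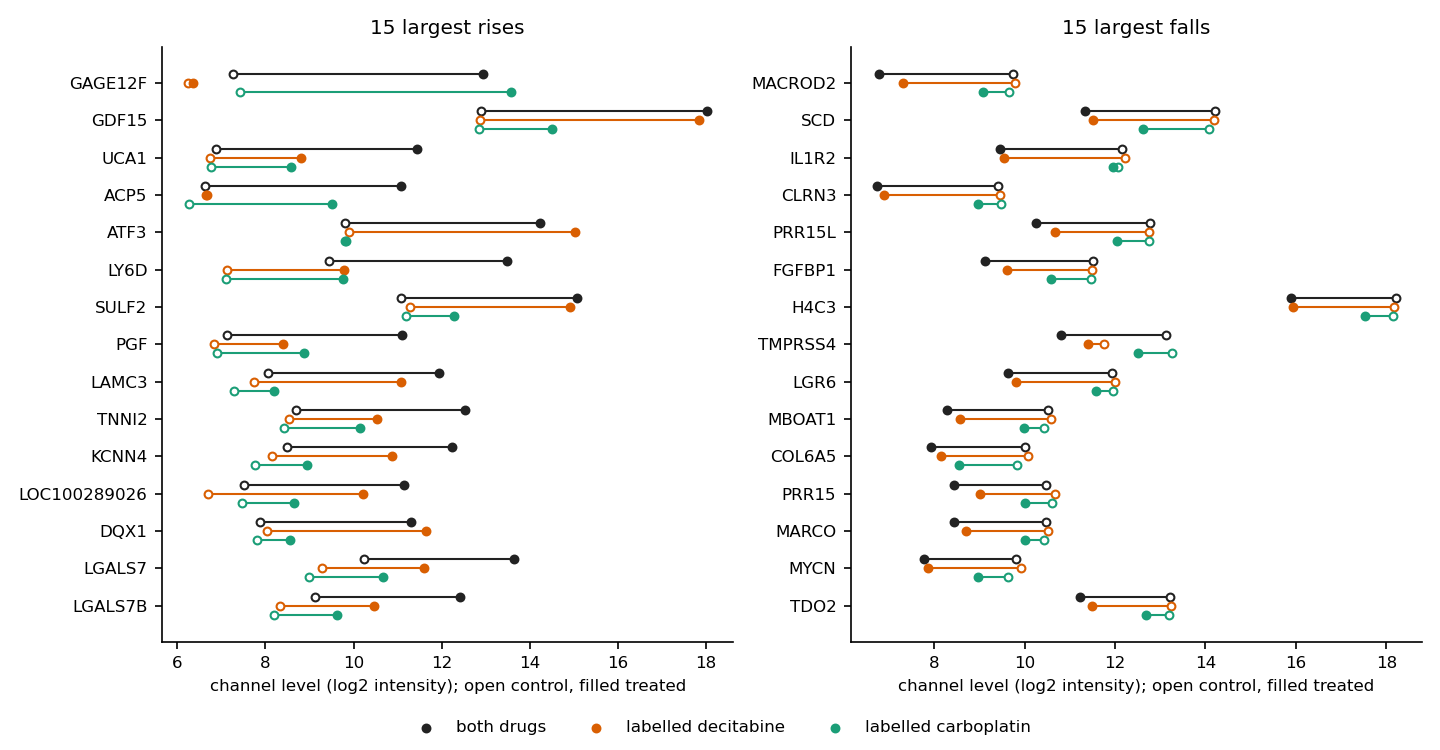
Control (open) and treated (filled) channel levels in log2 intensity on the 3 arrays for the 15 expressed genes with the largest rise and the 15 with the largest fall with both drugs. Open points of a gene lie apart for LY6D (9.44 here, 7.12 and 7.10 on the others), LGALS7, LGALS7B, LAMC3, KCNN4, GAGE12F and, in the defective columns of the array labelled decitabine, TMPRSS4 and LOC100289026.

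Most of the listed p53 targets rose, beside 9.28 % of all expressed genes up and 7.90 % down. Of 21 expressed p53 targets of cell cycle arrest, repair and feedback, 18 rose and 0 fell, with a median change of 1.65 compared with −0.01 over all expressed genes. Of 20 expressed p53 targets of apoptosis, 16 rose and 0 fell, with a median of 1.44. Under the processing alternatives at the same ratio of 1.5, to which all such ranges below refer, 16 to 18 of the former and 12 to 17 of the latter rose. At a ratio of 2 these counts were 16 and 13. The medians were 1.93 and 1.41 on the array labelled decitabine, where 4 and 7 of the genes lie in the defective columns, and 0.37 and 0.42 on the array labelled carboplatin.

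MDM2, the ubiquitin ligase that degrades p53, rose by 3.25 (9.54-fold, chr12:69236129-69236188). Its levels were 10.09 and 13.34 here, 10.16 and 13.50 on the array labelled decitabine and 10.24 and 10.86 on the array labelled carboplatin, and its 4 probes here lay between 2.29 and 3.53. CDKN1A, the p21 inhibitor of cyclin-dependent kinases, rose by 2.91 (7.51-fold, SD 0.0696 over 10 spots, chr6:36654706-36654765). Its control level was 12.97 here and 11.998 (labelled carboplatin) and 13.41 (labelled decitabine) elsewhere, so the control channels of this gene were apart as well. PLK3, a stress-responsive kinase, was next in size at 2.60.

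Of the apoptosis genes, FDXR, a mitochondrial ferredoxin reductase, rose by 2.45, PHLDA3, an inhibitor of AKT, by 2.29, and FAS, the death receptor, by 2.06 (SD 0.0757 over 10 spots). The death receptor genes TNFRSF10A and TNFRSF10B rose by 1.38 and 1.04, and TNFRSF10D, which encodes a decoy receptor, by 0.73. BBC3, which encodes PUMA, had a change of 0.00 at its brightest probe and 2.11 at another, and PERP one of 0.07.

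Most of the listed mitotic genes fell, beside 7.90 % of all expressed genes down and 9.28 % up. Of 43 expressed genes of mitosis and the spindle 38 fell and 0 rose, with a median of −0.97 and a range from −1.81 to −0.44, so that no member had a change above 0. Under the alternatives 32 to 43 of them fell and 0 rose, and at a ratio of 2 the falls were 20. ASPM, which organises spindle poles, fell by 1.81, from 13.55 to 11.74. CENPE, the kinetochore motor, fell by 1.72 (SD 0.0375 over 10 spots). PLK1, the kinase that drives entry into mitosis, fell by 1.54, from 13.71 to 12.17, compared with 13.91 and 12.40 on the array labelled decitabine and 13.70 and 13.37 on the array labelled carboplatin. BUB1 fell by 1.53 and the mitotic cyclins CCNB1 and CCNB2 by 1.52 and 1.47, although the other probe of CCNB2 read −0.28. The 5 members that did not reach the threshold were NCAPH at −0.56, CDC25B at −0.52, MAD2L1 and SPAG5 at −0.47 and BUB3 at −0.44. On the array labelled decitabine the median was −0.97, with 8 members in the defective columns, and on the array labelled carboplatin it was −0.12.

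Most promoters of these genes held short sequence elements. TTTGAA is the core of the cell cycle genes homology region, to which DREAM and related complexes bind, and CCAAT is the site of NF-Y. Both were searched on either strand, each on its own, in the promoter window of 250 bases before to 50 bases after the start of each gene (RefSeq, GRCh38.p14). Of the 38 mitotic genes that fell, 33 had a promoter in the table. TTTGAA was present in 24 of them (72.7 %) and CCAAT in 28 (84.8 %), compared with 15.4 % and 35.7 % of all 27305 promoters and 9.58 % and 36.6 % of those of expressed genes between the thresholds. All 37 promoters of expressed mitotic genes, whether called or not, gave 70.3 % and 81.1 %. Of the 7 promoters of DNA replication genes that fell, 0 held TTTGAA, while 3 held the E2F sites TTTGGCGC and 3 TTTCCCGC, present in 0.659 % and 1.66 % of all promoters and in 17.6 % and 23.5 % of the 34 promoters of expressed replication genes. Such a match describes the letters alone and not a bound site. The stretches before the start site of the 4 mitotic genes with the largest falls among those holding either element there are given 5′ to 3′ on the strand of the gene, with TTTGAA and CCAAT or their reverse complements TTCAAA and ATTGG in capitals. They are shown because the elements can be seen close to the start. The regions are chr1:197146670-197146815 (minus strand) for ASPM, chr16:23678769-23678888 (plus) for PLK1, chr2:110678064-110678183 (minus) for BUB1 and chr5:69167030-69167149 (plus) for CCNB1.
ASPM: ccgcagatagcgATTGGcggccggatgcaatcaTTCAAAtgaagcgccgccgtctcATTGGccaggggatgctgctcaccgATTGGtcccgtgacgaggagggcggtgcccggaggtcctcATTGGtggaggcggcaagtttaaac
PLK1: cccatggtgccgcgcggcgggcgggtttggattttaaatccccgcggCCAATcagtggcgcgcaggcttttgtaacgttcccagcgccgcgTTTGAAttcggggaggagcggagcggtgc
BUB1: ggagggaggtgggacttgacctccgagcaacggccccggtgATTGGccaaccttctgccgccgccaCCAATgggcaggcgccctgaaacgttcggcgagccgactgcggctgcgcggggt
CCNB1: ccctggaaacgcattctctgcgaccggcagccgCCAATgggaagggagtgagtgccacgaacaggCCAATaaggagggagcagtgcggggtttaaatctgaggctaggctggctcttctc
In PLK1 the CCAAT element begins 73 bases and TTTGAA 29 bases before the start. BUB1 and CCNB1 have 2 CCAAT elements each and no TTTGAA in the stretch shown, while ASPM has 4 and 1.

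Replication and repair lists held fewer calls than the mitotic list, a difference that was not tested. Of 40 expressed DNA replication genes 9 fell (22.5 %, beside 7.90 % of all expressed genes) and 0 rose, with a median of −0.31 and 7 to 28 down under the alternatives. The falls were led by the helicase subunits MCM3 at −0.96 and MCM6 at −0.95 and by GINS3 at −0.85. Of the 17 genes of nucleotide supply 0 were called, with 0 to 7 down under the alternatives. Of 31 genes of homologous recombination and crosslink repair, 7 fell and 1 rose, beside 7.90 % and 9.28 % of all expressed genes, with 5 to 21 down under the alternatives. RAD51AP1, a recombination factor, fell by 0.98, RMI1 by 0.80 and FANCL by 0.68, while RAD51C, a recombinase paralogue, rose by 0.67. In nucleotide excision and mismatch repair 3 of 23 genes rose and 1 fell, beside 9.28 % up and 7.90 % down of all expressed genes. Under the alternatives 2 to 5 rose and 0 to 4 fell. The rises included DDB2 (1.99) and XPC (1.57), the damage sensors that p53 also induces and that are counted in the p53 list as well.

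Replication-dependent histone genes are set beside the 7.90 % down and 9.28 % up of all expressed genes. Of 45 expressed histone genes 20 fell and 1 rose, H2AC8 by 0.66, with a median of −0.34. Under the alternatives 16 to 31 fell, or 11 at a ratio of 2. The classes differed, with every H4 gene down except H4C1 (−0.34). No H2B gene was called, and their changes lay between −0.13 (H2BC11) and 0.11 (H2BC4). H2A and H3 genes were called down in part. H4C3 fell by 2.32, from 18.21 to 15.89, compared with a change of −2.23 (labelled decitabine) and −0.62 (labelled carboplatin), and H4C11 fell by 1.84. Histone genes of a class are near-identical, so that their probes may share signal, and most histone mRNA lacks the poly(A) tail to which the labelling primer anneals. H1-1, a silent linker histone gene, rose at least 1.61-fold here.

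In G1 control 6 of 29 genes fell and 3 rose, which is 20.7 % and 10.3 % beside 7.90 % and 9.28 % of all expressed genes, with 5 to 14 down and 0 to 4 up under the alternatives. CDKN2C, an inhibitor of CDK4 and CDK6, fell by 1.71, CDKN1B, the p27 inhibitor, by 1.66 (SD 0.0448 over 10 spots), and E2F8, a repressor of E2F targets, by 1.24. Cyclins CCND1 and CCND3 rose by 0.93 and 0.65 and E2F7 by 0.66. The inhibitors of cyclin-dependent kinases therefore changed in both directions, CDKN1A up and CDKN1B and CDKN2C down.

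The machinery that decitabine targets and the silencing factors around it were also examined. Of 31 expressed genes of DNA methylation and HP1 silencing 6 fell (19.4 %, beside 7.90 % of all expressed genes) and 0 rose, with 2 to 17 down under the alternatives. CBX5 (HP1α), which binds methylated histone H3, fell by 1.22, from 11.52 to 10.30, although its 3 probes ranged from −1.22 to −0.33. EZH2, the Polycomb methyltransferase, fell by 0.90, CBX1 (HP1β) by 0.80 and UHRF1, which brings DNMT1 to replicating DNA, by 0.78. CBX3 (HP1γ) had a change of 0.06 and MBD2 one of −0.53 with probes that disagreed in direction. DNMT1, the maintenance methyltransferase, named here for its role, had a change of −0.15. Of the methylation-silenced tumour suppressor genes that the study followed, PDLIM4 (−0.35), RASSF1 (−0.12) and CDKN2A (−0.32) stayed between the thresholds.

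**Figure D3:**
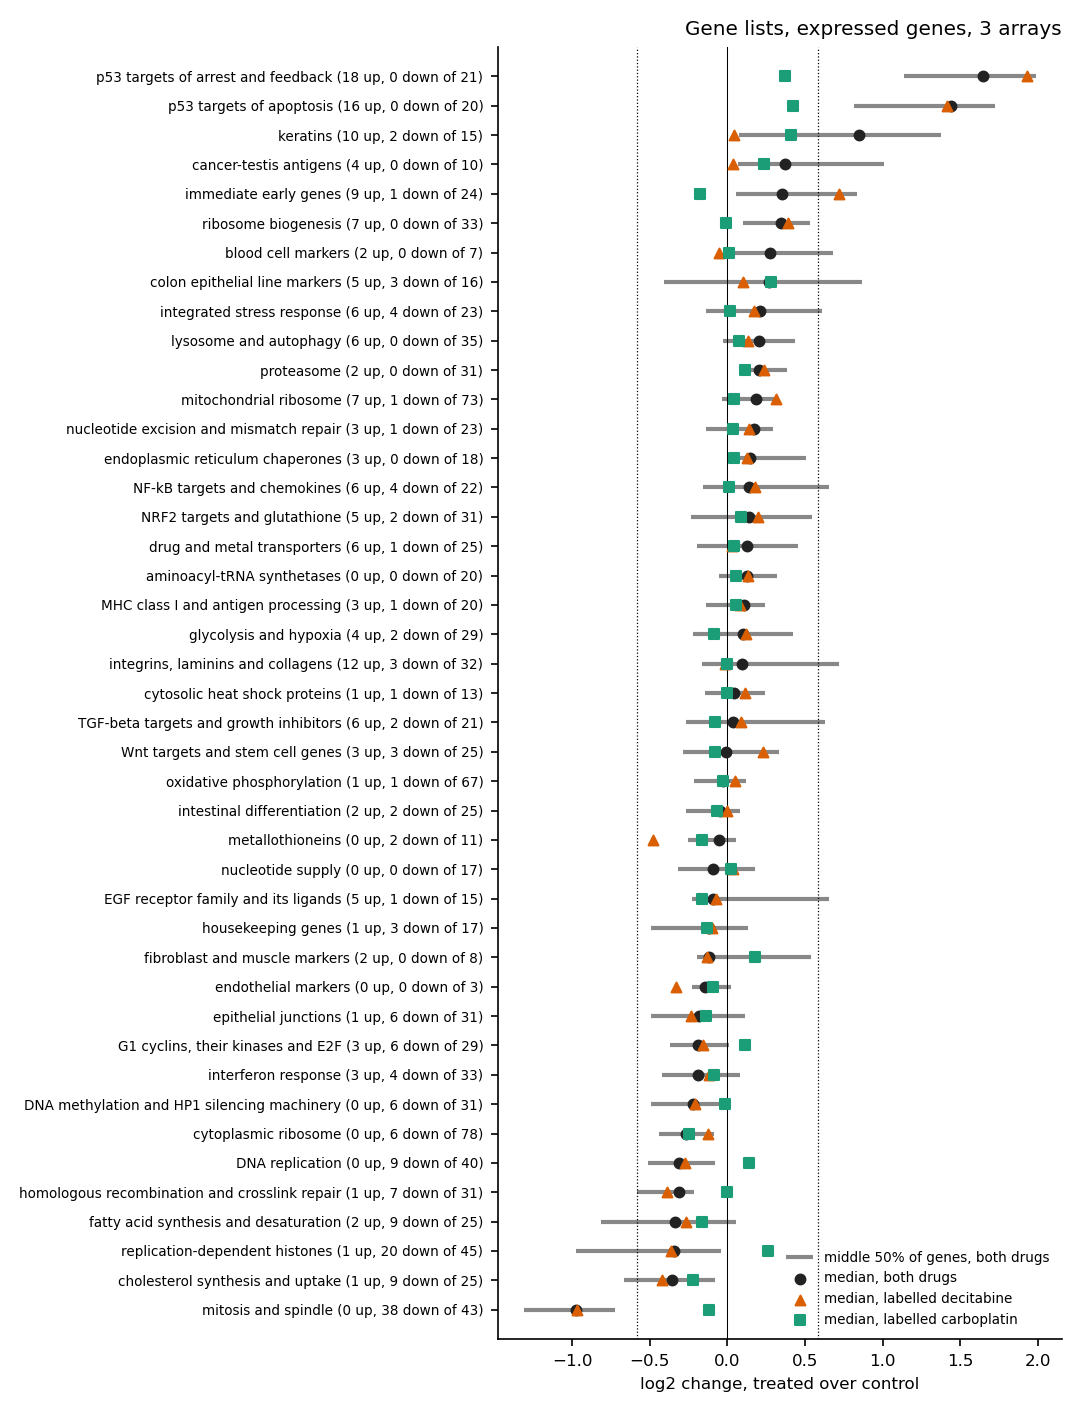
Median log2 change of the expressed genes of 43 lists on the 3 arrays (symbols) and the range of the middle 50 % of genes with both drugs (grey bars); counts of genes up and down with both drugs stand beside each name. The p53 lists (medians 1.65 and 1.44) and mitosis (−0.97) lie furthest from 0, and 18 of the 43 medians change sign when the array is centred on its median in place of loess.

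Lipid synthesis genes fell in larger shares than all expressed genes. Of 25 cholesterol genes 9 fell and 1 rose (median −0.35), and of 25 fatty acid genes 9 fell and 2 rose (median −0.34). This is 36.0 % of each list down compared with 7.90 % over all expressed genes. Under the alternatives 7 to 16 cholesterol and 9 to 15 fatty acid genes fell. INSIG1, which retains SREBP in the endoplasmic reticulum and is itself an SREBP target, fell by 1.59, STARD4, a sterol carrier, by 1.57 and DHCR7, the last enzyme of cholesterol synthesis, by 0.99. Beside SCD, ACSL3, an acyl-CoA synthetase, fell by 1.52 and FADS2, the delta-6 desaturase, by 1.44. TM7SF2, a sterol reductase, rose by 1.20. Changes of the 6 genes were smaller on the array labelled carboplatin, at −0.49 for INSIG1, −0.93 for STARD4, −0.70 for DHCR7, −0.87 for ACSL3, −0.49 for FADS2 and 0.49 for TM7SF2.

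Stress responses are set beside the 9.28 % up and 7.90 % down of all expressed genes. Of 23 expressed genes of the integrated stress response 6 rose (26.1 %) and 4 fell (17.4 %), with a median of 0.21 that turned negative under median centring. GDF15, ATF3 and SESN2 (1.25), which p53 induces too, led the rises. ASNS, asparagine synthetase and a standard target of ATF4, fell by 1.16, PHGDH, the first enzyme of serine synthesis, by 1.13 and SLC7A11, the cystine transporter, by 0.73. Chaperone genes of the endoplasmic reticulum had 3 of 18 up (CRELD2 1.08, PDIA4 0.86, CALR 0.77) and 0 down, with 0 to 4 either way under the alternatives, and cytosolic heat shock genes 1 of 13 up (HSPA1A 0.62) and 1 down (HSPA8 −0.59). Of 24 immediate early genes 9 rose (37.5 %) and 1 fell, with PHLDA1 at 1.94, IER3 at 1.88 and FOSL1, an AP-1 subunit, at 1.78. Under the alternatives 4 to 9 of these rose and 1 to 7 fell, and the median of the list, 0.36, turned negative under median centring.

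Among 31 NRF2 and glutathione genes 5 rose and 2 fell, which is 16.1 % and 6.45 % beside 9.28 % and 7.90 % of all expressed genes, with 1 to 7 up and 1 to 9 down under the alternatives. HMOX1, haem oxygenase, rose by 1.73 (SD 0.0828 over 10 spots), SRXN1 by 0.91 and GPX1 by 0.81, whereas AKR1C3, an aldo-keto reductase, fell by 1.40. Of 11 metallothioneins 0 rose and 2 fell, MT1F by 1.58 and MT2A by 0.67, with 0 to 1 up and 1 to 6 down under the alternatives. Of 25 drug and metal transporters 6 rose and 1 fell, with 2 to 7 up under the alternatives. ABCB6, a porphyrin transporter, rose by 1.63 and ABCB9 by 1.05, and CDA, the deaminase that inactivates decitabine and is carried in this list, fell by 1.02.

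The inflammatory lists held changes in both directions. Of 22 NF-κB targets and chemokines 6 rose and 4 fell, beside 9.28 % and 7.90 % of all expressed genes. RELB, an NF-κB subunit, rose by 1.45, ICAM1, an adhesion molecule, by 1.35 (SD 0.0310 over 10 spots) and BIRC3 by 1.28. The chemokines CXCL1 and CCL20 fell by 1.23 and 1.16, the latter to a treated channel that was not well above background and so at least 2.24-fold lower. Of 33 interferon response genes 3 rose and 4 fell, which is 9.09 % and 12.1 % beside 9.28 % and 7.90 % over all expressed genes, with 3 to 12 down under the alternatives. ISG15, the ubiquitin-like interferon product, rose by 1.31 and IRF7 by 1.17, while IFIT2 fell by 1.19, SAMD9 by 1.03 and HERC6 by 0.97. Of 20 genes of MHC class I and antigen processing 3 rose (15 %) and 1 fell (5 %), led by the immunoproteasome subunit PSMB10 at 1.15 and the peptide transporter TAP1 at 0.85.

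Of 15 expressed keratin genes 10 rose and 2 fell, beside 9.28 % and 7.90 % of all expressed genes, and 2 silent keratin genes rose too. Of all silent genes 2.02 % rose. The median was 0.85, with 5 to 11 keratins called up under the alternatives. KRT17, a keratin of basal and wounded epithelium, rose by 2.48, from 7.72 to 10.20. It went from 7.56 to 7.9996 on the array labelled decitabine and from 7.48 to 7.89 on the array labelled carboplatin, so the high value was that of the treated channel of this array alone. KRT80 rose by 1.85, with its other probe at 0.39, and KRT5, the keratin of basal layers, by 1.84, from 8.05 to 9.89. KRT5 changed by −0.31 on the array labelled decitabine and by 2.33 on the array labelled carboplatin. The keratins of simple epithelium KRT18, KRT8 and KRT19 rose by 1.14, 1.09 and 0.85. KRT10 fell by 0.66, and KRT14 fell by 1.69 while its other probe read 1.15. The list medians on the arrays labelled decitabine and carboplatin were 0.04 and 0.41.

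Matrix genes and their receptors are set beside the 9.28 % up and 7.90 % down of all expressed genes. Of 32 expressed genes of the integrin, laminin and collagen list 12 rose and 3 fell, with 3 silent genes up. Of all silent genes 2.02 % rose. Under the alternatives 4 to 13 expressed genes of the list were up and 2 to 8 down, and their median of 0.10 turned to −0.11 with median centring. COL9A3, a cartilage collagen chain, rose by 2.00, LAMA3, a chain of the epidermal laminin, by 1.54 and ITGA3, its integrin receptor, by 1.25. COL6A5 fell by 2.08 and LAMA4 by 0.99, although the other probe of LAMA4 read −0.09. Of 21 TGF-β targets and growth inhibitors 6 rose and 2 fell (2 to 7 and 2 to 5 under the alternatives), beside the same 9.28 % and 7.90 %. INHBA, the activin subunit, changed by 2.30 and BAMBI, a decoy receptor, by −1.05. Of 31 epithelial junction genes 6 fell (19.4 %) and 1 rose (3.23 %), beside 7.90 % and 9.28 % of all expressed genes, with 2 to 17 down under the alternatives. CDH1, E-cadherin, fell by 0.85 (SD 0.0521 over its repeated spots), TJP1 (ZO-1) by 0.83 and OCLN, occludin, by 0.76, and CLDN4, a claudin, rose by 1.06.

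Cancer-testis antigens were mostly silent. Of 37 measured, 10 counted as expressed and 4 of these rose, beside 9.28 % of all expressed genes. They were GAGE12F, PAGE5 at 1.39, PAGE2 at 1.05 and TKTL1 at 0.88. Of the 27 silent ones 2 rose, PRAME and CT45A1, beside 2.02 % of all silent genes. PAGE5 had a control channel that was not well above background, and its rise was at least 2.62-fold. In the control channel 7 of the 37 genes were well above background and in the treated channel 16. No cancer-testis gene was called on the array labelled decitabine, whose median was 0.04, and 4 of the 10 were up on the array labelled carboplatin.

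**Figure D4:**
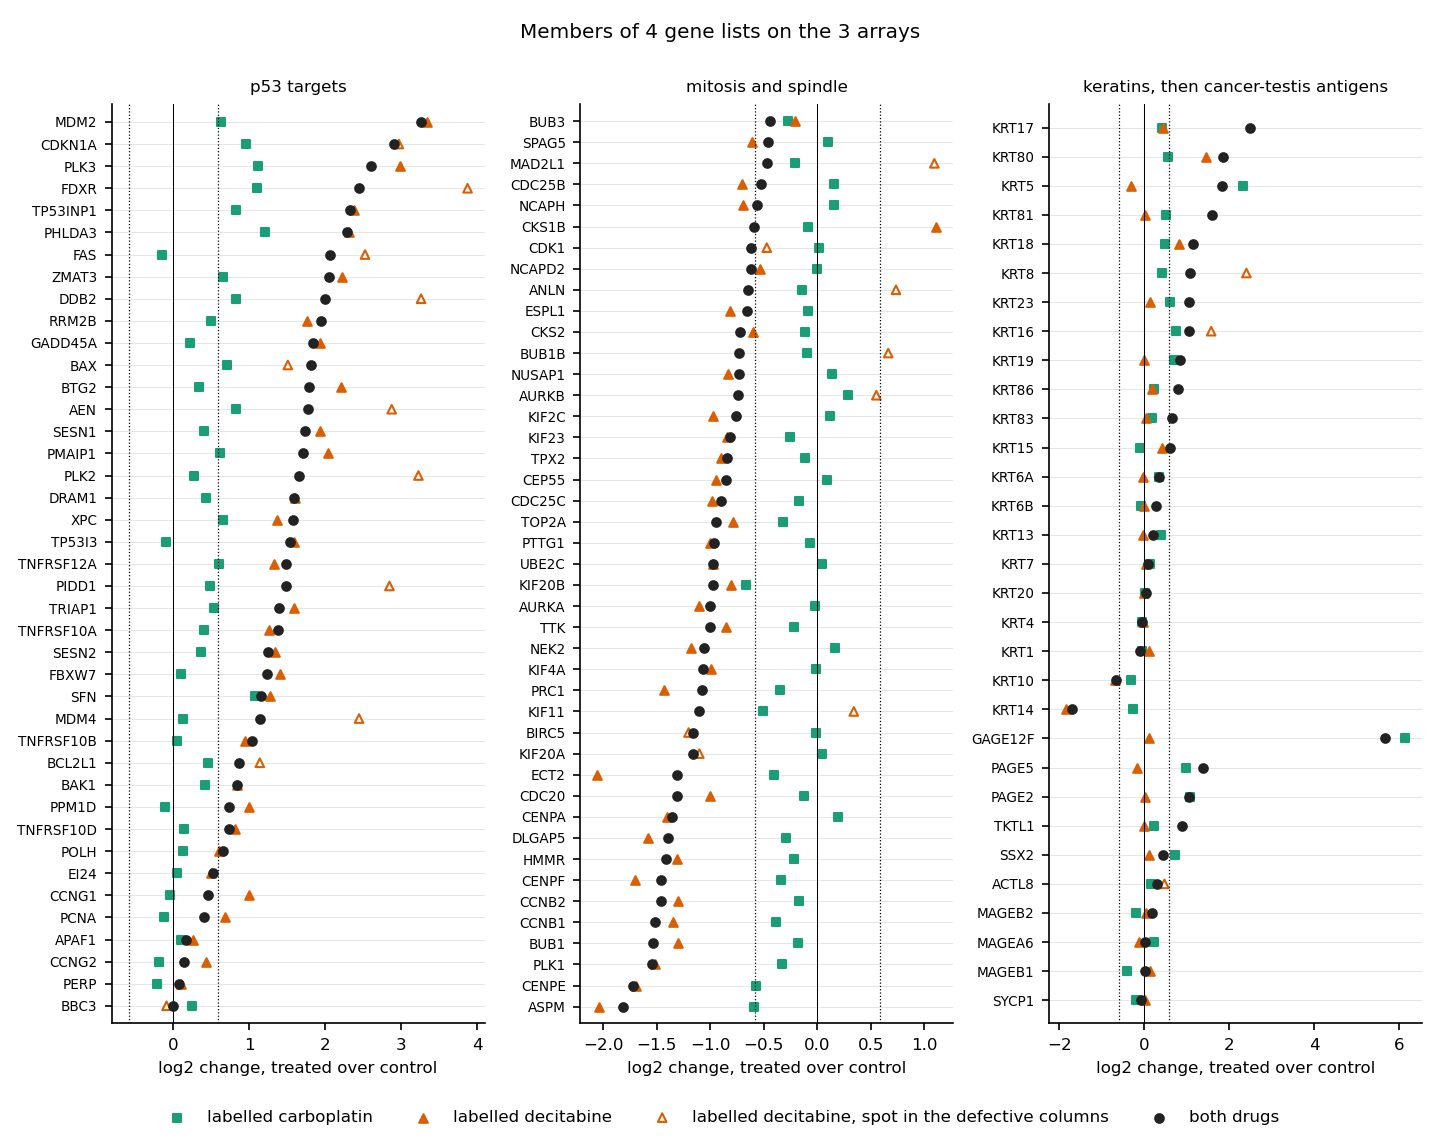
Log2 change of each member of 4 lists on the 3 arrays (p53 targets, mitosis and spindle, keratins with silent ones, and expressed cancer-testis antigens), ordered by the change with both drugs; dotted lines mark the ratio of 1.5 and open triangles the defective columns. Black circles (both drugs) lie above the upper line for most p53 targets, below the lower line for 38 of 43 mitotic genes, and apart from both other arrays for KRT17.

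Genes of intestinal identity were called in shares near those of all expressed genes, with 2 of 25 up and 2 down, 8 % each beside 9.28 % and 7.90 %. FCGBP (0.78), a mucus protein, and CA2 (0.73), carbonic anhydrase, rose, and GATA6, an endoderm factor, fell by 1.39 and CDH17, the intestinal cadherin, by 0.87 to a treated channel not well above background (at least 1.83-fold lower). Wnt target and stem cell genes were also near these shares, with 3 of 25 up and 3 down, or 12 % each. Under the alternatives 0 to 3 genes of the intestinal list were up and 1 to 7 down. For the Wnt list these ranges were 2 to 3 up and 3 to 9 down. BMP4 rose by 1.26, ASCL2 by 1.19 and EPHB4 by 0.82, while LGR6, TNFRSF19 (−1.55) and APCDD1 (−1.32) fell. The list of the EGF receptor family and its ligands also holds other receptors, and 5 of its 15 expressed genes rose and 1 fell, with 1 to 5 up and 0 to 5 down under the alternatives. The ligands AREG and HBEGF rose by 0.79 and 0.76, and the ephrin receptor EPHA2 by 1.21. The family member ERBB3 fell by 1.06, and its 3 probes ranged from −1.06 to −0.10. The median of the list was −0.09.

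The lists of general cell functions are given beside the 9.28 % up and 7.90 % down of all expressed genes. Of 67 oxidative phosphorylation genes 1 rose and 1 fell, with 1 to 31 down under the alternatives, and of 20 aminoacyl-tRNA synthetase genes 0 were called, with 0 to 4 down. Mitochondrial ribosome genes had 7 up (9.59 %) and 1 down of 73, with 1 to 8 up and 1 to 11 down under the alternatives. Cytoplasmic ribosome genes had 0 up and 6 down (7.69 %) of 78, and ribosome biogenesis genes 7 up (21.2 %) and 0 down of 33, where 1 to 7 were up under the alternatives. Proteasome genes had 2 up of 31, lysosome and autophagy genes 6 up of 35 (17.1 %, and 1 to 6 under the alternatives) with CTSD at 1.09, GAA at 1.05 and SQSTM1 at 1.02, and neither list a gene down. Of 29 genes of glycolysis and hypoxia 4 rose, ADM by 1.86 (SD 0.0272 over 10 spots), and 2 fell. The cytoplasmic ribosome list had 2 to 72 genes down under the alternatives and 0 at a ratio of 2.

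Reference genes and markers were read as a check, beside the 9.28 % up and 7.90 % down of all expressed genes. Of 17 housekeeping genes 1 rose and 3 fell, ACTB by 1.01, PPIA by 0.92 and RPLP0 by 0.65, with 0 to 8 of the 17 down under the alternatives. Other probes of these 3 genes fell less, the least being −0.21 for ACTB, −0.19 for PPIA and −0.32 for RPLP0. GAPDH changed by −0.12 (SD 0.0522 over 10 spots) and TBP by −0.20. Of 18 markers of colon epithelial lines 15 were well above background in each channel, while CDX1 and GPA33 were in neither, and 5 of the 16 expressed ones rose and 3 fell. Of 16 blood cell markers 5, of 14 fibroblast and muscle markers 7 and of 10 endothelial markers 3 were well above background in the control channel, and PTPRC, HBB, COL1A2, COL3A1, PECAM1 and CDH5 were not in either channel. From these lists CD68 (1.53), HBA1 (0.81), ACTA2 (2.11) and S100A4 (2.10) rose, which are 2 of 7 expressed blood cell and 2 of 8 expressed fibroblast and muscle markers, with 0 down, and 0 of 3 endothelial markers were called. Their part in the other results was not tested. Changes of cell number and of RNA per cell cannot be told apart in such RNA from whole cultures.

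Clustered gene families were picked out after their values were seen. Their counts stand beside the 9.28 % up and 7.90 % down of all expressed genes. All 3 expressed APOBEC3 genes, which encode cytidine deaminases and lie side by side on chromosome 22, rose, APOBEC3C by 2.31, APOBEC3F by 2.20 and APOBEC3B by 0.97. APOBEC3C went from 8.90 to 11.20, compared with 8.96 and 11.06 on the array labelled decitabine and 8.87 and 9.92 on the array labelled carboplatin. Of 10 expressed S100A genes of calcium-binding proteins 5 rose and 0 fell, with S100A4, S100A2 (1.65) and S100A14 (1.63) highest. Of 12 kallikrein proteases 5 rose and 2 fell, with 1 to 5 up under the alternatives. KLK5, a protease of the skin barrier, rose by 2.47, from 8.40 to 10.87, whereas KLK11 fell by 1.14 and KLK1 by 0.91. HOXA genes, which set position along the body axis, fell in 6 of 11 cases and rose in none. They were HOXA2, HOXA4, HOXA5, HOXA6, HOXA7 and HOXA9, with changes from −1.16 to −0.72, and 6 to 9 of the 11 fell under the alternatives, or 2 at a ratio of 2. HOXB had 2 of 10 down, HOXC 0 of 6 and HOXD 1 of 6.

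**Figure D5:**
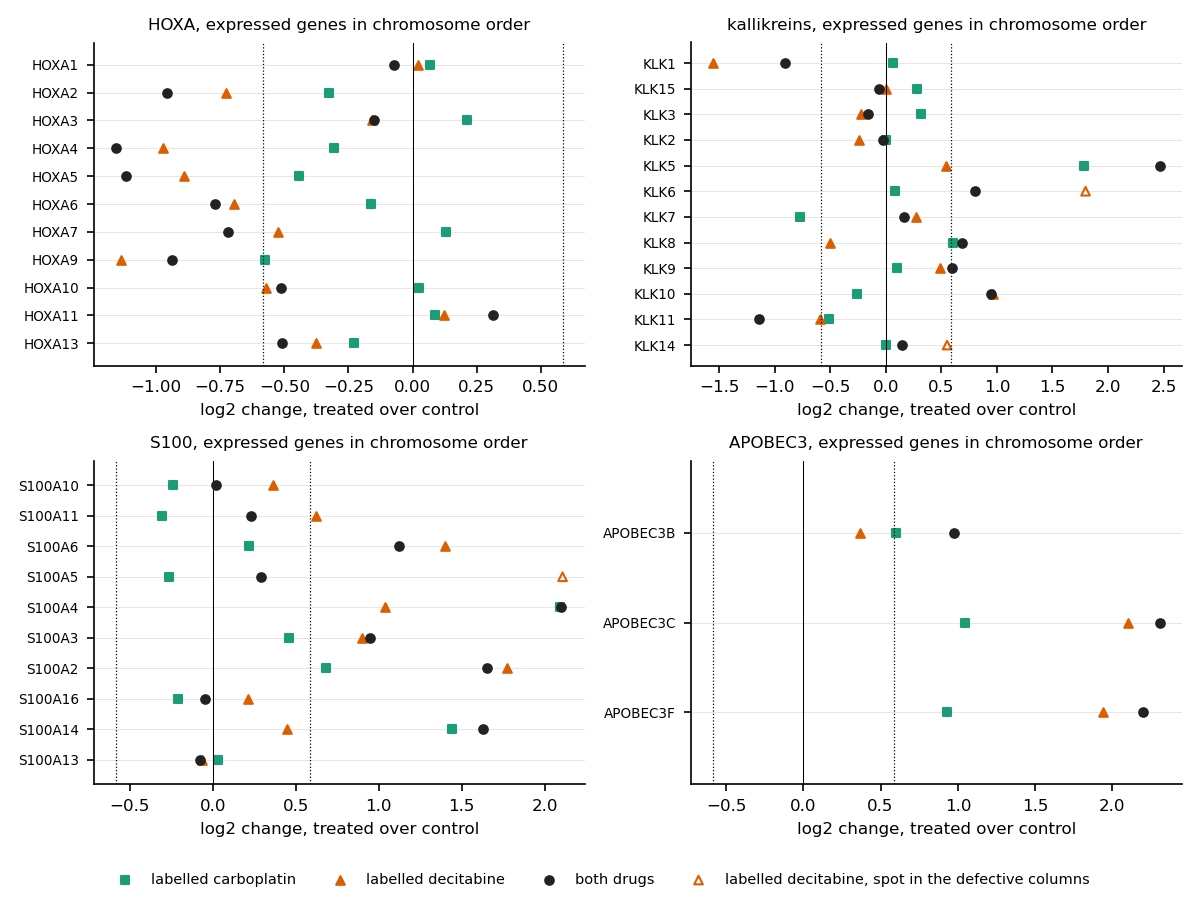
Log2 change on the 3 arrays for the expressed genes of 4 families in chromosome order; dotted lines mark the ratio of 1.5 and open triangles the defective columns of the array labelled decitabine. With both drugs (black) HOXA4 to HOXA9 lie between −1.16 and −0.72, all 3 APOBEC3 genes above 0.9, and KLK5 at 2.47.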

How the data were processed

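RNA of treated (Cy3) and control (Cy5) YB5 cells was hybridised by the authors to 3 dual-colour Agilent arrays on 1 slide. The deposited scanner files hold spot intensities and a log10 ratio of red over green, written by Feature Extraction (9.5.3.1 per the file headers, 8.5.1.1 per the submitters' processing notes, which also name R 3.0.2 and limma). The deposited value table holds the authors' loess-normalised log2 ratios, whose scale, centring and direction are not given in the sources used here. It correlated at r = 0.936 over probes with the values computed here and its median was −0.01. It was used as an alternative only.

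Mean signals were corrected with normexp (offset 50) and normalised by loess in limma 3.58.1 under R 4.3.3, and the sign was turned to treated over control. Channel levels came from Aquantile scaling between arrays. Control spots and 89 outlier spots of this array were left out, repeated spots were averaged and a gene took its brightest probe. The loess step centres each array, so a shift of most genes in one direction would be removed. Of 41000 probes 29381 matched RefSeq GRCh38.p14 genes by accession or symbol. Probe positions are those of the files (GRCh37) and promoters are from RefSeq GRCh38.p14. Where a channel was not well above background, the fold is a bound against the lowest signal well above background. The only spread available was that of repeated spots. The script was tested on simulated data.

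Genes were named by rule. Among genes above background in a channel with no disagreeing probe, these were the 15 largest rises and 15 largest falls of expressed genes, the 5 largest rises of silent genes, the 3 largest rises and 3 largest falls called in each of 43 lists, the genes the study followed by PCR or protein, and the reference and cell type markers. The lists and members were chosen with earlier results of these data known. Some genes that this rule names are not reported here. Every other gene named, and the gene families, were chosen after their values were seen. Alternatives covered the signal and background, the normalisation, the filter, the probe rule, the threshold and the defective columns.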

Additional observations from a re-analysis of the deposited data

Results flagged for a closer look

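AREG, which encodes amphiregulin, a ligand of the EGF receptor, had log2 changes of opposite sign past the threshold on 2 arrays. Its change was 0.79 with both drugs, from 11.82 in the control to 12.62 in the treated channel, and −0.97 on the array labelled carboplatin, from 11.95 to 10.98. On the array labelled decitabine it was 1.14, from 11.88 to 13.02. With 1 array each, the difference was not tested. EREG, which encodes epiregulin, gave 0.63, 1.15 and −0.92 on the arrays of both drugs, labelled decitabine and labelled carboplatin.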

How the results depend on the processing

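The balance of rises and falls depended most on the centring, and their counts also on the ratio. With median centring 544 genes rose and 3985 fell, and rises were 12.01 % of the calls. The scanner log ratio and the processed signals it is made from each gave 1762 falls and 48.4 % rises. The share of rises was 48.8 % in the authors' table and 60.2 % with the mean of all probes of a gene. At a ratio of 2 there were 428 rises and 256 falls, with 62.6 % rises. Other backgrounds, filters and outlier rules kept both counts within 1.5 times of those reported. Median centring changed the sign of 18 of 43 list medians, while those of the p53 lists (1.14 and 0.94), mitosis (−1.42) and keratins (0.39) kept theirs. Of 178 named genes called, 0 had the other sign under any alternative that was run for that gene. Apart from fixed genes and markers, they were chosen for large changes and for probes that agreed in direction. Their sign under the mean of all probes was thus set in advance, and the count says little about other genes. Some alternatives did not cover every named gene. No paired analysis was possible because each treatment has 1 array. The number of arrays limits the precision, and the spread between cultures was not measured.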

Other observations

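Called genes were spread unevenly over the chromosomes. Rises made up 15.6 % of the 358 expressed genes of chromosome 22, 13.8 % of the 564 of chromosome 9 and 12.6 % of the 681 of chromosome 16. Falls made up 15.9 % of the 232 genes of chromosome 13 and 15.8 % of the 462 of chromosome 4, compared with 2.65 % of the 980 genes of chromosome 19. Genes that rose had an expressed neighbour that rose in 29.3 % of cases, compared with 16.1 % of other genes, and genes that fell had one that fell in 23.3 % compared with 14.3 %. Neighbouring genes can share sequence or a promoter, and no test was run. The longest runs of neighbours that rose were PGPEP1, GDF15, SSBP4, ISYNA1 and ELL on chromosome 19 and NPTXR, CBX6, APOBEC3B, APOBEC3C and APOBEC3F on chromosome 22. A run of 5 HOXA genes fell on chromosome 7.

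The promoters of genes that rose held TTTGAA in 7.22 % of cases, compared with 18.4 % for genes that fell and 9.58 % for genes between the thresholds. GGGCGG, the site of SP1, was present in 73.2 %, 66.0 % and 67.4 % of them. GASK1B, a Golgi protein, rose by 2.43, from 6.49 to 8.92, while its changes were −0.20 (labelled decitabine) and 0.09 (labelled carboplatin). It was chosen after its values were seen. WNT ligand genes, picked in the same way, rose in 5 of 10 expressed cases and fell in none, with WNT4 at 1.19 and WNT10A at 1.05. Of 14 KLF genes 2 rose and 5 fell, with KLF12 lowest at −1.96. The WNT and KLF counts stand beside the 9.28 % up and 7.90 % down of all expressed genes.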
